A study of Mus musculus with 8 samples.

Results

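RGS proteins (regulators of G protein signalling) were examined in RNA sequencing of marginal zone B cells (MZBs), the B cells that border the marginal sinus of the spleen. The genes are Rgs1, Rgs2, Rgs3, Rgs10, Rgs12, Rgs13, Rgs14, Rgs16, Rgs18 and Rgs19, taken by symbol, and all 10 were found among the 23997 genes of the processed table. The study sequenced 8 libraries from C57BL/6 mice: 4 of MZBs with the genotype ACKR3+, titled GFPposi, and 4 of MZBs with the genotype ACKR3-, titled GFP-. The labels do not state the age of the mice or the allele behind the GFP names. ACKR3 is an atypical receptor that takes up the chemokine CXCL12 and does not itself signal through G proteins.

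The processed table gives 1 estimated fragment count and 1 variance per gene for each of 2 condition columns, named q1 and q2, and no value per library. Neither name matches a label, so no column was assigned to ACKR3+ or ACKR3- cells, and the differences below are between q2 and q1 only. Ackr3 itself had 149 fragments in q2 and 1030 in q1, and this was not used to assign them. Since each condition has 1 value, the spread between mice is unknown and differences are described without p-values. The number after ± is the SD implied by the deposited variance, which follows mainly the size of the count. Column totals were 16653774 fragments in q2 and 16877559 in q1, and the depth of single libraries is unknown. Defining genes of MZBs were abundant: Cr2, encoding CD21, had 70851 fragments in q2 and 81167 in q1, and Notch2, the receptor that MZB development needs, had 12452 in q2 and 12933 in q1. The columns were not alike in B cell markers. Of 10 marginal zone B cell markers, 9 were lower in q2, and of 8 follicular B cell markers, 6 were higher in q2.

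RGS proteins shorten the signal of G protein-coupled receptors. A receptor bound by its ligand loads the G protein alpha subunit with GTP, and the RGS domain speeds the hydrolysis of that GTP, which ends the signal. In B cells this brake acts on the chemoattractant receptors that place cells in the follicle, the marginal zone or the germinal center. The R4 family (here Rgs1, Rgs2, Rgs3, Rgs13, Rgs16 and Rgs18) consists mostly of small proteins with little besides the RGS domain. The R12 family (Rgs10, Rgs12 and Rgs14) and the RZ family (Rgs19) differ in their flanking regions: Rgs12 and Rgs14 also carry a GoLoco motif, which holds the alpha subunit in its GDP form, and Rgs19 has a cysteine-rich stretch that is palmitoylated.

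Promoter sequences are shown for the genes with the largest ratios in each direction, Rgs13 and Rgs10, and for Rgs2, the chromosomal neighbour of Rgs13. They are from RefSeq (GRCm38.p6), where 7 of the 10 genes matched; Rgs1, Rgs14 and Rgs18 did not. Each run is the 250 bases before the RefSeq start, along the minus strand, 5′ to 3′, and capitals mark any match to the motifs searched. The Rgs13 window is chr1:144177373-144177622, the Rgs2 window chr1:144004150-144004399 and the Rgs10 window chr7:128418173-128418422. The gene spans given below are from GENCODE, whose starts can differ from those of RefSeq. The Rgs10 window lies inside the GENCODE span of Rgs10, and the Rgs2 window overlaps the edge of that of Rgs2.
Rgs13: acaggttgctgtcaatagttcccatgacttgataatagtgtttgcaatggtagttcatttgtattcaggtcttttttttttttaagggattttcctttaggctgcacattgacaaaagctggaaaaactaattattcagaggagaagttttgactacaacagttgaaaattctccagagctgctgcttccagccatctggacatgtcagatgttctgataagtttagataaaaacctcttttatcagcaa
Rgs2: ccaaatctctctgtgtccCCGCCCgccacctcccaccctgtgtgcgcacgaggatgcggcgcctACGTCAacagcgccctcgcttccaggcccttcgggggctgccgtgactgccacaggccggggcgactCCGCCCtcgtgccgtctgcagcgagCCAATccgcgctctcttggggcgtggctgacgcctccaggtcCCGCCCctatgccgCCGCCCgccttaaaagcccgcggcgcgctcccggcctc
Rgs10: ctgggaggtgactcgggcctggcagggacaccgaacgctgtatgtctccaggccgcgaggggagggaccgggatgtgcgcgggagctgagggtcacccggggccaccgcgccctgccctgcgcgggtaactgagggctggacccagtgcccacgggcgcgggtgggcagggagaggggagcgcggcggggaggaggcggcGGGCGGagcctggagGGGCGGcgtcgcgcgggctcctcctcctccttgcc
The motifs, searched on both strands, were the TATA box TATAAA, the CCAAT box CCAAT, the GC box GGGCGG, the CRE core TGACGT, the E-box CACGTG and the octamer core TTTGCAT. None of these motifs contains another. Of 32851 promoter windows of this length, 12.4% held the TATA box, 33.8% the CCAAT box, 32.7% the GC box, 6.47% the CRE core, 6.02% the E-box and 4.12% the octamer core. The Rgs13 window held none of these letters, the Rgs2 window held GC boxes, a CCAAT box and a CRE core, and the Rgs10 window held GC boxes only. Base composition also separated them. The Rgs13 window had a GC content of 36% and 0 CpG dinucleotides, whereas the Rgs2 window had 72.4% GC and 30 CpG and the Rgs10 window 76.4% GC and 27 CpG. The median window had 6 CpG, 7.87% had 0 and 8.56% had 27 or more. Among the 11 windows of the 7 matched genes, low CpG counts were not limited to Rgs13, though only its window had 0. The Rgs3 windows had 3 and 7 CpG, the Rgs12 windows 14 and 3, the Rgs19 windows 20, 34 and 4, and the Rgs16 window 17.

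Rgs13 was near absent from q1 and present in q2, while the 7 RGS genes with 100 fragments in both columns were less than 2-fold apart. Ratios are log2 of q2 over q1 with a pseudocount of 1, and were counted where the higher column reached 100 fragments, as for 8 of the 10 genes; Rgs12 and Rgs16 stayed below. A 2-fold difference toward q2 was shown by 1 RGS gene, Rgs13, beside 1.84% of the 9582 genes at this minimum. A 2-fold difference toward q1 was shown by 0 RGS genes, beside 0.438% of all genes. Rgs13 reached the minimum only through q2, so that it had to differ. Of the 8 genes, 3 were higher in q2 and 5 in q1 by any amount, beside 50.2% and 49.8% of all genes. Their median log2 ratio was -0.13, -0.22 for the 7 with 100 fragments in both columns and -0.04 when 20 fragments sufficed and Rgs12 came in, beside 0.00 over all genes. Ratios exceeded 2 deposited SD for 2 of the 8, Rgs13 and Rgs10, against 6.26% of all genes.

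**Figure D1:**
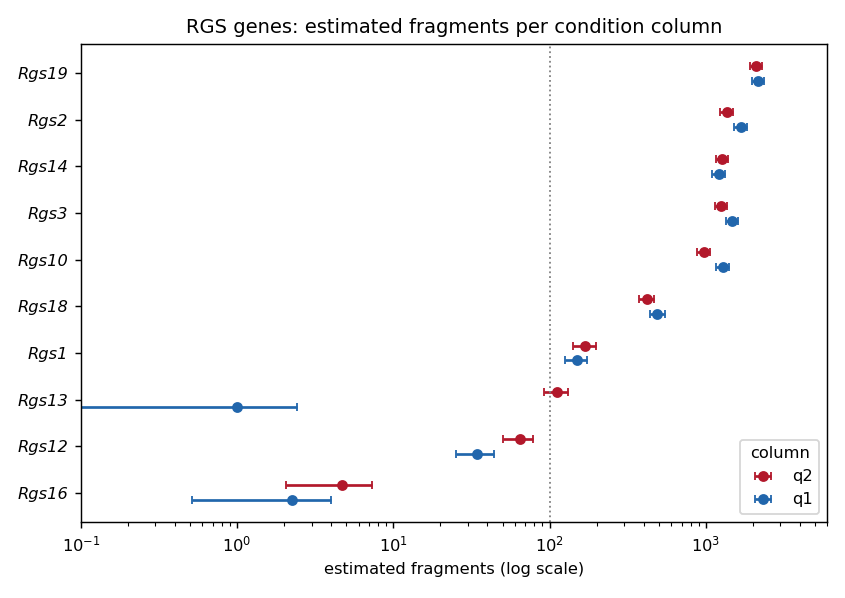
Estimated fragments (log axis) of each RGS gene in column q2 and in column q1; bars are the SD from the deposited variances, drawn down to the axis limit where they pass 0, and the dotted line marks 100 fragments. The columns lie apart for Rgs13, with 112 fragments in q2 and 0.99 in q1, and near each other for the abundant genes.

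Rgs13, whose protein in mouse restrains chemokine responses of germinal center B cells and antigen responses of mast cells, lies on chromosome 1 (144138654 to 144177372, GRCm38, minus strand). It had 112 ± 20.1 fragments in q2 and 0.99 ± 1.41 in q1. The quotient was 113, and its exact (Clopper-Pearson) 95% interval of 19.7 to 4600 covers counting error alone, with estimated fragments taken as counts. The log2 ratio of 5.82 was the largest of the 9582 genes in absolute value; it ranked 3 of 9523 genes after removal of trends with GC content, transcript length and expression, and 6 of 9582 with a pseudocount of 10. Genes that mark germinal center B cells stood in the same direction: 9 of the 9 in the table were higher in q2, with 3205 fragments in q2 and 752 in q1 in sum and none at 0. Of its most abundant genes, Nuggc, a germinal center GTPase, had 356 fragments in q2 and 10.7 in q1. Mybl1, encoding the transcription factor A-Myb, had 394 in q2 and 19.7 in q1. Bcl6, the germinal center repressor, had 1130 in q2 and 553 in q1, so it was not near 0 in q1. Plasma cell markers were also higher in q2, 6 of 7, with 53124 fragments in q2 and 17919 in q1 in sum and none at 0. Jchain (Igj in the table) supplied most of the q2 sum, with 33006 fragments in q2 and 3234 in q1. Irf4 went the other way, with 8357 in q2 and 10113 in q1. The part of germinal center or plasma cells in the Rgs13 value was not tested. In bulk RNA, fewer cells of a type and less RNA per cell cannot be told apart. The 8 mast cell and basophil markers summed to 14.3 fragments in q2 and 8.53 in q1, with Cpa3 and Tpsb2 at 0 in both columns.

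Rgs1, which in B cells dampens migration toward CXCL12 and CXCL13, had 169 ± 28.1 fragments in q2 and 150 ± 24.9 in q1. The columns were within 1 deposited SD, at a log2 ratio of 0.17 ± 0.34, and the counting interval of the ratio, 0.901 to 1.42, included 1. T cells also express Rgs1, and 9 of 9 T cell markers in the table were higher in q2. They summed to 1204 fragments in q2 and 809 in q1, with none at 0. Most of these were from Lck, with 689 in q2 and 524 in q1, and Cd28, with 165 in q2 and 30.3 in q1. The other T cell markers stayed below 100 fragments and within 2 deposited SD. The part of T cells in the Rgs1 value was not tested. The log2 ratio of Rgs1 became -0.07 once trends with GC content, transcript length and expression were removed. Rgs16, a member of the R4 family induced on lymphocyte activation, was at the edge of detection, with 4.70 ± 2.65 fragments in q2 and 2.25 ± 1.73 in q1. The ratio of 2.09 had a counting interval of 0.349 to 19.0, so that a difference was not detectable at this depth.

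Rgs2, an R4 protein that acts preferentially on Gq, had 1366 ± 131 fragments in q2 and 1676 ± 159 in q1. The log2 ratio was -0.30 ± 0.19, or 1.52 deposited SD, and 13.3% of all genes were at least as far apart. Rgs3, which acts on Gi and Gq, had 1255 ± 116 fragments in q2 and 1475 ± 134 in q1, at -0.23 ± 0.19. Rgs18, an R4 protein of blood cells known mainly from platelets, had 420 ± 48.5 fragments in q2 and 490 ± 54.4 in q1, at -0.22 ± 0.23. All 3 were lower in q2 by 14.4% to 18.5%, and in each case the counting interval of the ratio lay below 1 while the difference stayed within 2 deposited SD. Platelet granule genes were near 0: Pf4, the defining granule chemokine, had 0.44 fragments in q2 and was at 0 in q1, and Ppbp had 1.62 in q2 and 0.24 in q1. The 9 platelet and megakaryocyte markers summed to 477 fragments in q2 and 305 in q1. Most of these were from Itgb3, an integrin chain that other leukocytes also express, with 373 in q2 and 198 in q1, and from Gp1ba, a platelet adhesion receptor chain, with 71.9 in q2 and 79.0 in q1. Gp9 was also at 0 in q1.

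**Figure D2:**
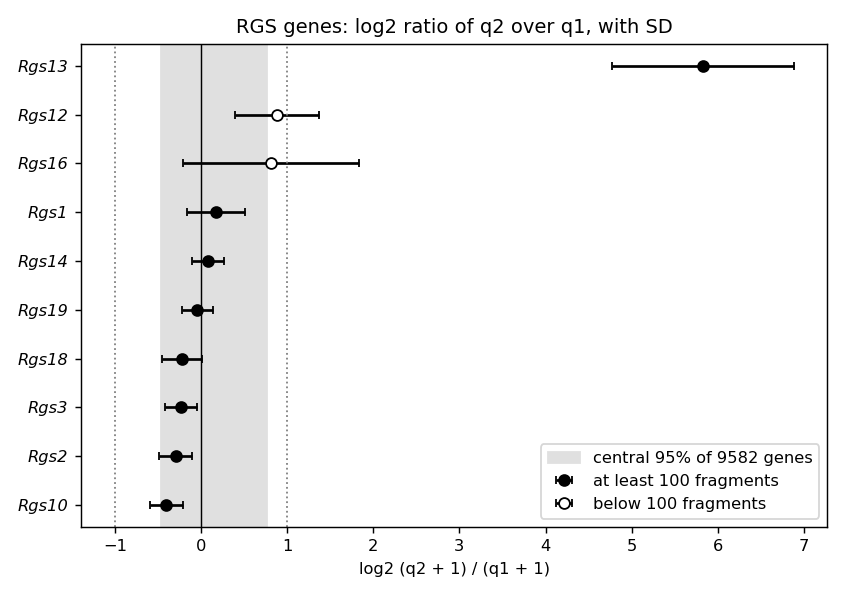
Log2 ratio of q2 over q1 of each RGS gene with its SD from the deposited variances; filled points reached 100 fragments, open points did not, dotted lines mark 2-fold and the grey band holds the central 95% of the 9582 genes (-0.46 to 0.77). Rgs13 is far to the right, at 5.82, and Rgs10 is the lowest, at -0.40.

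Within the R12 family the genes went different ways. Rgs10, a small Gi-directed RGS protein of lymphoid and myeloid cells, lies on chromosome 7 (128373621 to 128418758) and had 967 ± 93.4 fragments in q2 and 1278 ± 118 in q1. It was 24.3% lower in q2, a log2 ratio of -0.40 ± 0.19, or 2.08 deposited SD, and 8.41% of all genes were at least as far apart. Markers of macrophages and monocytes, which also express Rgs10, were lower in q2 for 10 of 12 genes. The 12 summed to 956 fragments in q2 and 1370 in q1, with none at 0. The 2 that were higher in q2 were Ly6c2 and Adgre1 (Emr1 in the table). Ly6c2 had 208 fragments in q2 and 59.4 in q1, and Adgre1 had 146 in q2 and 85.8 in q1. Marginal zone B cell markers were lower in q2 for 9 of 10 genes, with 119233 fragments in q2 and 141364 in q1 in sum and none at 0. The part of either in the Rgs10 value was not tested. Rgs14, which joins the RGS domain to Ras-binding domains and a GoLoco motif, had 1275 ± 118 fragments in q2 and 1205 ± 112 in q1, at 0.08 ± 0.19. Rgs12, the large multidomain member of the family, had 64.3 ± 13.9 fragments in q2 and 34.5 ± 9.26 in q1. Its ratio of 1.87 had a counting interval of 1.22 to 2.91, and the log2 ratio of 0.88 ± 0.49 was within 2 deposited SD. Gm15503, a noncoding gene on the same strand that is not in the table, overlaps Rgs10, and its reads cannot be told apart from those of Rgs10. An antisense gene overlaps Rgs12, Rgs3 and Rgs16 in the annotation, and the strand setting of the counting is not given, so reads of such partners cannot be told apart from theirs.

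Rgs19 (also GAIP), the RZ family member, which acts on Gi, had the most fragments of the 10 genes and the smallest difference. It had 2100 ± 186 fragments in q2 and 2165 ± 190 in q1, at -0.04 ± 0.18, with a counting interval of the ratio of 0.913 to 1.03.

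**Figure D3:**
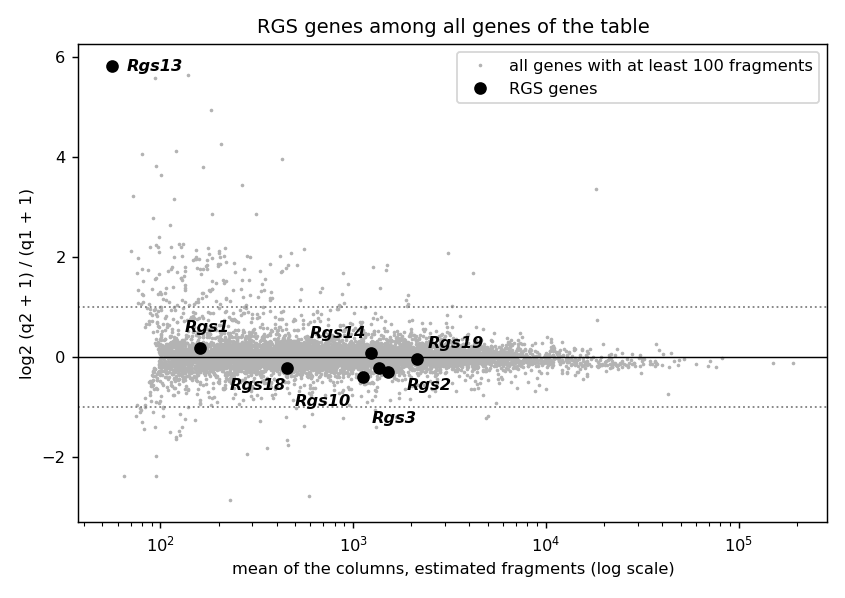
Log2 ratio of q2 over q1 against the mean of the columns in estimated fragments (log axis) for all genes that reached 100 fragments in either column (grey) and the 8 RGS genes among them (black). Rgs13 stands above the other genes at 5.82, and the other 7 RGS genes lie between -0.40 and 0.17, inside the main cloud.

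Per kilobase of the longest annotated transcript, Rgs19 and Rgs10 had the highest levels in both columns. Rgs19 had 1390 ± 123 fragments per kilobase in q2 and 1433 ± 126 in q1, and Rgs10 had 1099 ± 106 in q2 and 1453 ± 135 in q1. Rgs19 stood first in q2 and Rgs10 in q1, and in neither column were they more than 2 SD apart. Rgs14 followed at 536 ± 49.6 in q2 and 507 ± 47.2 in q1, beside Rgs2 at 452 ± 43.5 in q2 and 555 ± 52.6 in q1; these neighbours were again within 2 SD, as were Rgs3 and Rgs18 after them. The other steps in the order exceeded 2 SD, except between Rgs16 and Rgs13 at the bottom of q1. Rgs13, last of the 10 in q1 at 0.64 fragments per kilobase, stood at 72.3 ± 13.0 in q2, above Rgs1 at 28.9 ± 4.81. The order depends on the transcript length used. With the median transcript length Rgs13, at 73.1 fragments per kilobase in q2, stood below Rgs1 at 90.4 and Rgs12 at 80.9. The deposited SDs in q2 were 18.0% of the value for Rgs13, 16.6% for Rgs1 and 21.5% for Rgs12. Their order was therefore not resolved. At the median length Rgs2 had 1934 in q2 and 2373 in q1, so that it stood above Rgs19, at 2229, in q1. With SDs in q1 of 9.47% for Rgs2 and 8.78% for Rgs19, that order was not resolved either. Rgs2 was over 3 times the level of Rgs14, at 607 in q2 and 574 in q1. In fragments, the 10 genes together had 7733 in q2 and 8478 in q1. Rgs19 supplied 27.2% of them in q2 and 25.5% in q1, and Rgs13 supplied 1.44% in q2 and 0.012% in q1.

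Genes next to Rgs13 did not share its difference. On chromosome 1, 4 of the 10 genes (Rgs2, Rgs13, Rgs1 and Rgs18) share the minus strand within 776 kb (143999338 to 144775435, GRCm38), with Rgs21 between Rgs1 and Rgs18 at 0 fragments in both columns. The genes outside chromosome 1 are scattered: Rgs3 is on chromosome 4 (62559847 to 62704001), Rgs12 on chromosome 5 (34949445 to 35039644), Rgs14 on chromosome 13 (55369732 to 55384687) and Rgs19 on chromosome 2 (181688419 to 181693977). The start of Rgs13 is 173 kb from that of Rgs2, at a log2 ratio of -0.30, and 71.9 kb from that of Rgs1, at 0.17. Next to the group, Uchl5, a deubiquitinase gene 192 kb from Rgs2, had 475 fragments in q2 and 383 in q1, at 0.31 ± 0.24. Rgs16 also lies on chromosome 1 (153740349 to 153745468). The nearest genes of Rgs10 were BC017158 and Tial1, an RNA-binding protein gene. BC017158 stood at -0.22 ± 0.22, the direction of Rgs10, and Tial1 at 0.06 ± 0.18.

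**Figure D4:**
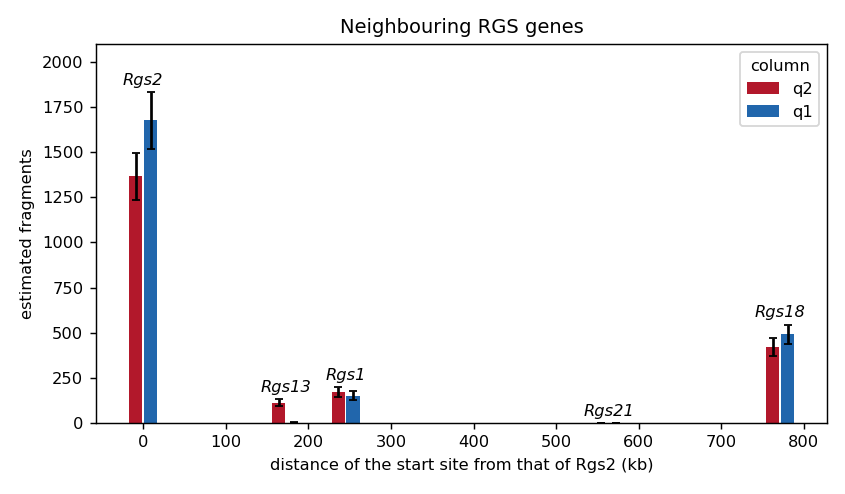
Estimated fragments in q2 and in q1 of the RGS genes grouped on chromosome 1, placed by the distance in kb of their start site from that of Rgs2; error bars are the SD from the deposited variances. Rgs13 has 112 fragments in q2 and 0.99 in q1, between Rgs2 and Rgs1, which have fragments in both columns.

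Most of the remaining RGS family was not detected. Of the 11 other Rgs genes, 7 (Rgs5, Rgs6, Rgs7, Rgs8, Rgs17, Rgs21 and Rgs22) were at 0 in both columns. Of all 23997 genes, 16515 were above 0 in either column. Rgs4, with 2.51 fragments in q2 and 0 in q1, and Rgs20, with 2.34 in q2 and 1.82 in q1, were under 3 fragments, so no fold is given. Rgs9, an R7 protein known from photoreceptors and striatum, had 47.3 ± 11.6 fragments in q2 and 7.96 ± 3.87 in q1, for a ratio of 5.95 (95% counting interval 2.78 to 14.6). Rgs11, also of the R7 family, had 16.5 ± 5.83 fragments in q2 and 35.8 ± 9.54 in q1, for a ratio of 0.461 (interval 0.241 to 0.848). Gnb5, the beta subunit that R7 proteins need for stability, was scarce; chosen after its values were seen, it had 9.08 fragments in q2 and 7.17 in q1.

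G protein alpha subunits of all types were listed, and those that reached 100 fragments lay near equal in the columns. Of 13 listed, 9 reached 100 fragments, 4 higher in q2 and 5 in q1, 0 by 2-fold, with a median log2 ratio of -0.01. Gnai2, the main Gi subunit of lymphocytes, had 7871 fragments in q2 and 7293 in q1, at 0.11 ± 0.18. Gna13, the subunit that couples to S1PR2 in germinal center B cells, stood at 0.23 ± 0.18 and Gnai3, another Gi subunit, at 0.17 ± 0.18. The largest ratio was that of Gna15, a Gq-type subunit of blood cells, with 119 fragments in q2 and 92.9 in q1, at 0.35 ± 0.37. Gna11, also of the Gq type, had 560 in q2 and 608 in q1, at -0.12 ± 0.22. Gnaz, a Gi-type subunit below the minimum and named after its values were seen, had 26.4 fragments in q2 and 1.29 in q1, for a ratio of 20.5 (interval 3.97 to 417).

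Other proteins with an RGS domain, among them the G protein-coupled receptor kinases, had a median log2 ratio of -0.06 over 14 of 15 genes, with 4 higher in q2 and 10 in q1. Grk3, a receptor kinase (Adrbk2 in the table), was the 1 member at least 2-fold apart, with 1007 ± 98.4 fragments in q2 and 2333 ± 206 in q1, at -1.21 ± 0.19. The related Grk5 stood at -0.30 ± 0.23 and Grk4 at -0.20 ± 0.37, Snx25, a sorting nexin, at 0.18 ± 0.20, and Arhgef1, a guanine nucleotide exchange factor downstream of Gα13, had 17283 fragments in q2 and 19634 in q1, at -0.18 ± 0.20. Among 7 further modulators of alpha subunits, 6 reached 100 fragments, with a median of -0.12. Rap1gap, a Rap1 inactivator with a GoLoco motif, had 723 ± 73.6 fragments in q2 and 1906 ± 170 in q1, at -1.40 ± 0.20. Gpsm2, a GoLoco protein of mitotic spindle orientation, went the other way, with 115 ± 42.1 fragments in q2 and 35.2 ± 16.9 in q1, at 1.68 ± 0.85; that difference was within 2 deposited SD. Ric8a, a chaperone of alpha subunits, stood at -0.17 ± 0.20, its relative Ric8b at -0.10 ± 0.20 and Gpsm1, a GoLoco protein, at -0.15 ± 0.29. Receptors that position B cells had a median of 0.18 over 10 genes, 6 higher in q2 and 4 in q1. S1pr2, the germinal center receptor that is also on the germinal center list, was the member at least 2-fold apart, with 309 fragments in q2 and 21.2 in q1, at 3.81 ± 0.49. The next largest ratios were those of Ccr6, a CCL20 receptor, at 0.73 ± 0.18, S1pr3, a sphingosine-1-phosphate receptor, at -0.62 ± 0.18, Cxcr4, the signalling receptor of CXCL12, at 0.52 ± 0.19, and Ccr7, the receptor for T zone chemokines, at 0.37 ± 0.20.

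**Figure D5:**
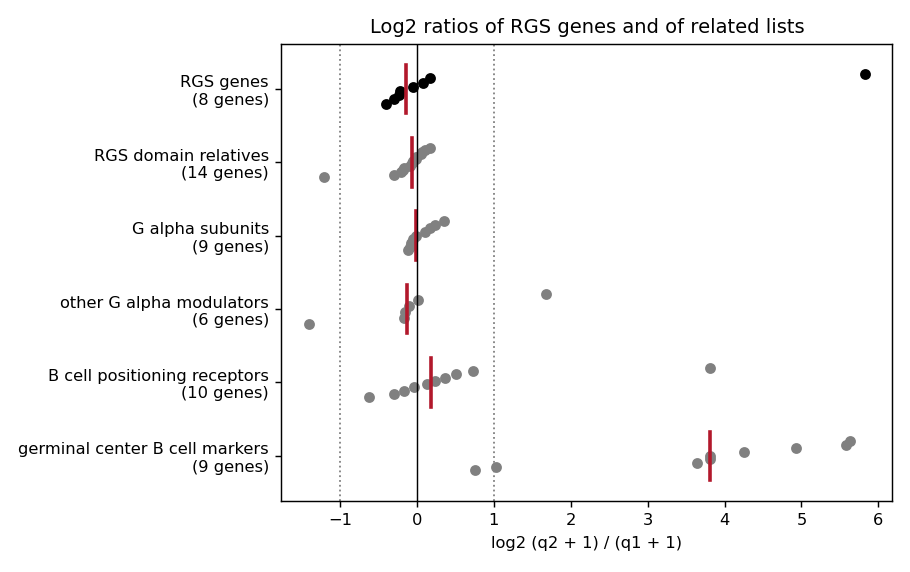
Log2 ratio of q2 over q1 of the genes with at least 100 fragments in each list, with the median as a vertical line and 2-fold as dotted lines. The RGS genes lie near 0 except Rgs13, which falls among the germinal center markers (median 3.81).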

How the data were processed

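RNA was extracted with Trizol and libraries were made with an Illumina TruSeq kit, per the labels' protocols. The submitters' processing notes name cutadapt 1.8.1 and the mm10 build, with TopHat2 2.0.14 and Cuffdiff 2.2.1, but not the annotation, filters, scaling or strand setting. The authors' deposited table holds, per its headers, Cuffdiff's expected counts (estimated fragments) per gene and condition, with their variances.

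The members and gene lists were chosen with earlier results of these data known. Log2 ratios of q2 over q1 used a pseudocount of 1, so that ratios of low genes are too small, and a minimum of 100 fragments in the higher column. A 2-fold difference was the size rule. SDs came to first order from the deposited variances. The uncertainty variance, deposited separately, was 0 for every gene. Ratio intervals were Clopper-Pearson. The genes named were the RGS family, Ackr3 and some of the nearest genes in the table. Up to 5 genes were added per pathway list by absolute ratio, and up to 3 per marker list by fragments. Markers at or near 0, Adgre1, Gnb5 and Gnaz were named after their values were seen. Positions and transcript lengths were from GENCODE M21 (GRCm38), with 23592 symbols placed. A protein comparison was not run. Calculations used Python 3.11.15, numpy 2.4.6, pandas 2.3.3 and scipy 1.17.1 and were tested on simulated data. Alternatives were other pseudocounts, minimums, scalings and size rules, a correction for GC content, length and expression by cubic terms, and the median transcript length.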

Additional observations from a re-analysis of the deposited data

How the results depend on the processing

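No paired analysis was possible because q1 and q2 each pool their libraries, with no replicate numbers; for the same reason no library was left out and no count test was run. Of 48 recomputed log2 ratios of RGS genes, 46 stayed within counting error. The others were Rgs13, at 3.47 with a pseudocount of 10, which by construction shrinks low counts, and Rgs18, at -0.44 when corrected for GC content, length and expression; the cause was not tested. The count of RGS genes at least 2-fold higher in q2 was 0 with a minimum of 500 fragments, which leaves out Rgs13. Over all genes, the counts past 2-fold (176 toward q2, 42 toward q1) were 346 and 102 when 20 fragments sufficed, 39 and 14 when 500 were needed, and 325 and 151 under a 1.5-fold rule, since these admit more or fewer genes. Each of the 41 recomputed list medians stayed within the median deposited SD of its genes; that of the alpha subunits, -0.01, was 0.10 when corrected and 0.05 with either other minimum, so it has no stable direction. That of the RGS genes, -0.13, was -0.04 with a minimum of 20 fragments and -0.23 with 500. With the median transcript length, fragments per kilobase in q2 and q1 were 2162 and 2229 for Rgs19, 2087 and 2758 for Rgs10, 1934 and 2373 for Rgs2, 607 and 574 for Rgs14, 606 and 712 for Rgs3, 90.4 and 80.1 for Rgs1 and 80.9 and 43.4 for Rgs12. Depth limits most the values of Rgs13 in q1 and of Rgs16.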
